A study of Drosophila melanogaster with 3 samples.

Results

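The nuclear transfer RNA (tRNA) genes for lysine, glutamine and glutamate whose anticodon begins with cytidine were followed in small RNA from heads of adult male Drosophila melanogaster. They were taken from the authors' deposited table by gene symbol alone, as every nuclear gene named tRNA:Lys-CTT, tRNA:Glu-CTC or tRNA:Gln-CTG. There were 34 such genes, 13 Lys-CTT, 13 Glu-CTC and 8 Gln-CTG, among 290 nuclear tRNA genes and 3546 noncoding genes in all. The rule uses names and no measured value, although the families were picked with earlier results of these data known. All 34 genes had reads, and 28 had an adjusted p-value.

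Flies of both groups carried tub-GAL80ts, a temperature-sensitive repressor of GAL4, and nSyb-GAL4, which drives expression in neurons. One group expressed UAS-SxlRAC, a form of the RNA-binding sex determination protein Sex-lethal (Sxl). The other expressed UAS-mCherry, a red fluorescent protein, from the attP2 site, as the control. After growth at 18 °C, adults spent 4 days at 29 °C, where the repressor is inactive. The driver is neuronal whereas RNA came from whole heads, and in such bulk samples fewer cells of a type and less RNA per cell cannot be told apart. Of the 6 libraries that the authors compared, 3 per group, the 3 of Sxl-RAC have labels here. Nothing in the labels says whether these were separate crosses, so the p-values measure only the spread between these libraries.

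The base at the start of the anticodon, called the wobble position, pairs with the last base of the codon. Lysine, glutamate and glutamine each share a codon box with another amino acid and are read by a pair of tRNA types. One has uridine at the wobble position and carries a thiolated, side-chain modified base in eukaryotes. The other has cytidine there, which pairs with guanosine alone. Thus tRNA Lys-CTT reads the codon AAG, tRNA Glu-CTC reads GAG and tRNA Gln-CTG reads CAG. All are made by RNA polymerase III from promoters inside the gene, and in flies each is encoded by many scattered copies. In the symbol, the first number after the anticodon marks a distinct mature sequence and the last number marks the copy, so that genes which share the former are here called a sequence set. Copies of 1 set cannot be told apart by reads that lie within the mature tRNA.

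The series asks whether Sxl raises tRNA synthesis in male neurons. In the authors' deposited table Lys-CTT genes were higher in Sxl-RAC heads, Glu-CTC genes had values near 0 or below and none was called, and Gln-CTG genes were too rare for any but a large change to be seen. By DESeq2's Wald test with the authors' adjustment, 13 of the 28 genes with an adjusted p were called (under 0.05), all of them higher and all of them Lys-CTT. The 13 genes form 1 of the 8 sequence sets, and copies of 1 set are not replicates. Among the 137 nuclear tRNA genes that have an adjusted p, members included, 21.2% were called, 14.6% higher and 6.57% lower. Without the members, 16 of 109 (14.7%) were called, 7 higher and 9 lower. Over all 1128 genes with an adjusted p the share was 5.14%. The median log2 fold change was -0.01 over the 34 genes and -0.01 over all 277 nuclear tRNA genes with reads. Over only the genes with an adjusted p it was 0.18 for the 28 members and -0.04 for the 137 nuclear tRNA genes. Medians of the members mix 3 families that differ, so they describe none of them.

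These directions hold only within the tRNA class. When p-values of tRNA genes were adjusted by themselves (Benjamini-Hochberg), the authors' adjusted p came out within 1% in all 149 tRNA genes that have one, against 1 gene when every class was adjusted together. Size factors recovered from the smallest mean counts also differed between classes. In control libraries they were 2.19, 1.16 and 0.819 for tRNA genes and 1.83, 0.936 and 0.772 for microRNAs, and in Sxl-RAC libraries 0.956, 0.817 and 0.625 for tRNA genes and 0.998, 0.976 and 0.776 for microRNAs. Moving tRNA genes onto the size factors of microRNAs adds -0.43 to each log2 fold change. On that scale the median of Lys-CTT was -0.16, that of Glu-CTC was -0.47 and that of the 8 Gln-CTG genes was -0.45, each below 0. There 89 of the 137 nuclear tRNA genes (65.0%) passed as lower, among them all 13 Glu-CTC genes and 2 Lys-CTT genes (tRNA:Lys-CTT-1-10 and tRNA:Lys-CTT-1-13), and no member passed as higher. The differences between tRNA families are the same on either scale. The direction of the comparison is the one the file states, and with no row for Sxl it could not be checked on the transgene.

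**Figure D1:**
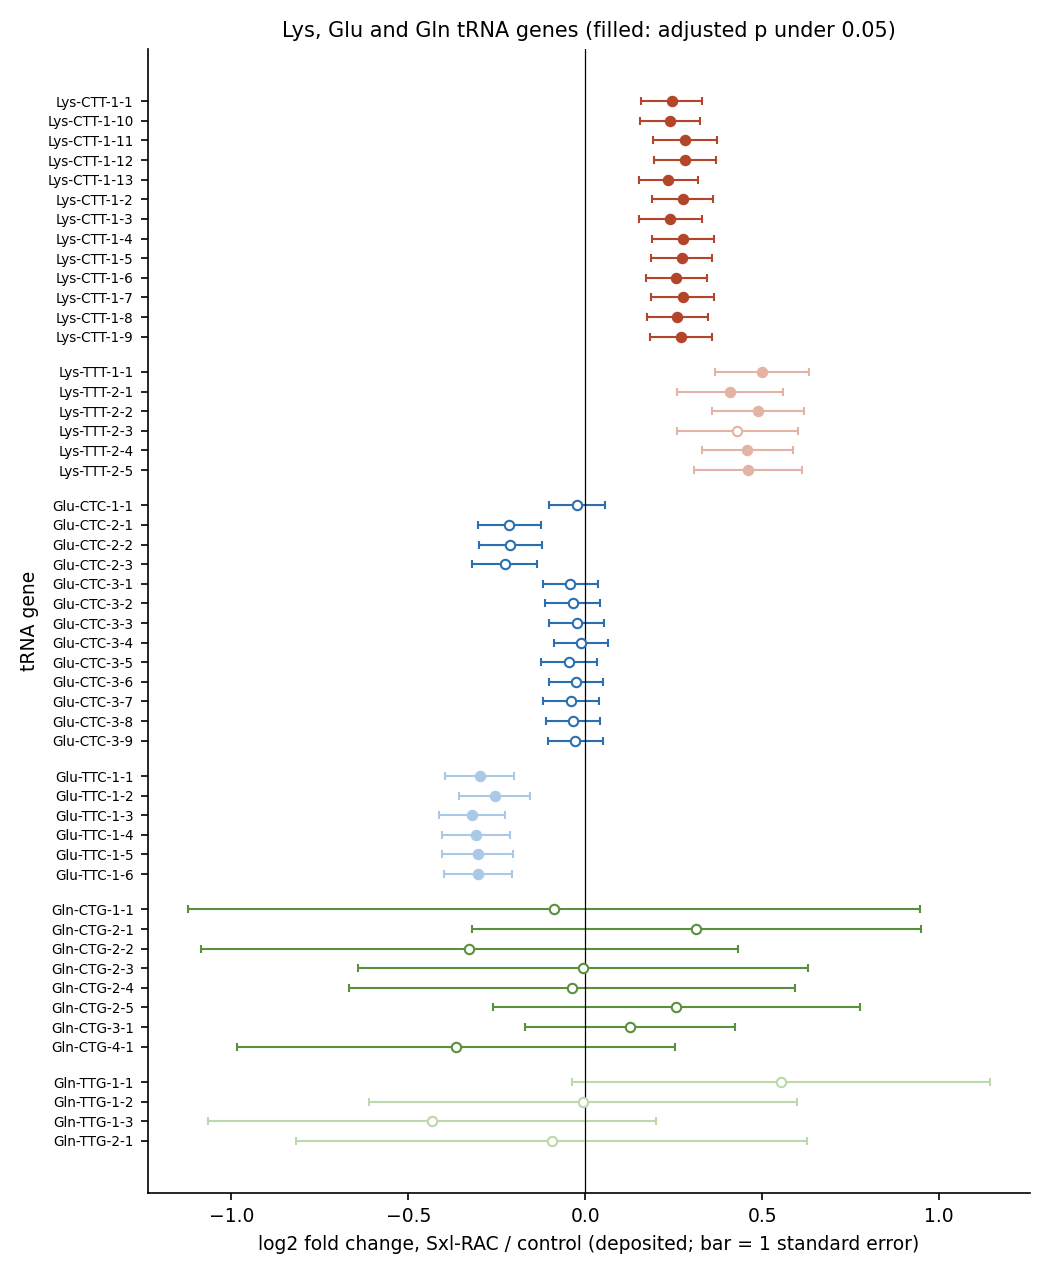
Deposited log2 fold change of Sxl-RAC over control, with 1 standard error, for each Lys, Glu and Gln tRNA gene with wobble cytidine (dark) or uridine (pale); filled points had an adjusted p under 0.05. All 13 Lys-CTT genes lie between 0.23 and 0.28, but below 0 on the microRNA scale, and of the Glu-CTC genes the 3 of set 2 lie apart at -0.21 to -0.23.

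Together the 34 genes held 85.4% of all mean normalised counts of nuclear tRNA genes, very unevenly. Glu-CTC held 66.4% from 4.48% of the genes, Lys-CTT held 19.1% from the same number of genes, and Gln-CTG held 0.0173%. The 26 genes of the first 2 families were the 26 most abundant nuclear tRNA genes, with Glu-CTC at ranks 1 to 13 and Lys-CTT at ranks 14 to 26. Mean normalised counts ran from 28065 to 35423 per Glu-CTC gene, from 6532 to 14547 per Lys-CTT gene and from 3.13 to 40.3 per Gln-CTG gene. Genes of the 3 families are 72 or 73 bases long, so these levels need no correction for length. How evenly reads of different tRNAs were captured is not known. Abundant and rare therefore refer to read counts throughout, and not to amounts of tRNA. Whether the reads were whole tRNAs or fragments of them is not given in the sources used here.

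Lys-CTT, which brings lysine to AAG codons, had the most even fold changes of the 3 families, but it is also the only one made of 1 sequence set. The standard deviation of its log2 fold changes was 0.017, beside 0.011 in Glu-CTC set 3 and 0.0084 in Glu-CTC set 2. The table gives no count per library, and the level of each group was computed from the mean normalised count and the fold change. For tRNA:Lys-CTT-1-12, the most abundant copy and also the one with the highest fold change (chromosome 3L, 3096604 to 3096676, in an intron of Cht7 on the opposite strand), the level was 13127 in the control group and 15967 in the Sxl-RAC group. Sxl-RAC over control was 0.28 on the log2 scale (standard error 0.09, 95% interval 0.11 to 0.45), and DESeq2's adjusted p was 0.0149. Its neighbour tRNA:Lys-CTT-1-13, 214 bases away on the other strand, had the lowest fold change of the family. There the level was 6106 in control and 7185 in Sxl-RAC, or 0.23 on the log2 scale (standard error 0.08, 95% interval 0.07 to 0.40, DESeq2 adjusted p 0.0256). The pair span the fold changes of the whole family. Each value lies within the interval of the other, but the intervals hold spread between libraries that both copies share, so this does not compare the pair. Read counting alone, at the recovered size factors, gives errors of 0.010 and 0.015, and their difference was not tested. The median increase over the 13 copies was 20.7%, and their adjusted p ran from 0.0149 to 0.0350.

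The abundance of Lys-CTT copies fell into 2 steps. Of the 13 copies, 10 had mean normalised counts from 6532 to 6645, and 3 had counts from 14520 to 14547, which is 2.21 times the mean of the 10. The 3 were tRNA:Lys-CTT-1-4, tRNA:Lys-CTT-1-11 and tRNA:Lys-CTT-1-12, which lie far apart, on chromosome 2R from 6165984 and from 19802591 and on 3L from 3096604. No copy lay between the steps. The step was present in both groups, 2.19 times in control and 2.22 times in Sxl-RAC. The median log2 fold change was 0.28 in the 3 (0.276 to 0.283) and 0.26 in the 10 (0.235 to 0.275), a difference of 0.02 without overlap. The standard error of 0.09 for a single gene covers spread between libraries, which all copies share, so it does not measure this difference. Read counting alone, at the recovered size factors, gives a median error of 0.010 in the 3 and 0.015 in the 10. The difference was not tested.

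The steps followed the strand of the chromosome. All 3 copies of the upper step lie on the plus strand and all 10 of the lower step on the minus strand, so that neighbours such as tRNA:Lys-CTT-1-12 and tRNA:Lys-CTT-1-13 fall on different steps. Summed over copies, the plus strand held 43593 mean normalised counts and the minus strand 65822. The same held in Glu-CTC set 2, where the plus-strand copy tRNA:Glu-CTC-2-2 had 35423 and the minus-strand copies had 31273 and 31300, a ratio of 1.13. After these values were seen, every nuclear tRNA sequence set with copies on both strands and an average of at least 10 mean counts was examined. In 15 of the 15 such sets with unequal numbers of copies, the strand with fewer copies had the higher mean count per copy, and in 12 of them the strands did not overlap. In Glu-TTC the plus-strand copy tRNA:Glu-TTC-1-2 had 1.55 times the mean of the 5 minus-strand copies, and in Lys-TTT set 2 the 2 minus-strand copies had 1.48 times the mean of the 3 plus-strand copies. Why counts divide by strand was not tested.

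Copies within a step differed little from each other. Over the 10 copies of the lower step the coefficient of variation of the mean normalised count was 0.424%, and counting reads alone, at the recovered size factors, would give 0.525%. Their log2 fold changes had a standard deviation of 0.016 against 0.015 from counting alone. The authors' standard error of a single copy, which covers the spread between libraries, was 0.083 to 0.090 in the family. The spread among copies thus stayed near the counting error and well under the spread between libraries.

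Glu-CTC, the glutamate tRNA for GAG codons, was the most abundant nuclear tRNA family, and 10 of its 13 genes had log2 fold changes from -0.05 to -0.01 on the deposited scale. By DESeq2's Wald test none of the 13 was called, and 3 had an unadjusted p under 0.05. All 13 log2 fold changes were below 0, with a median of -0.04. Set 3, whose 9 copies sit in introns of Ptp61F on chromosome 3L, had a median of -0.03 with standard errors near 0.08. In tRNA:Glu-CTC-3-4 (3L, 1397695 to 1397766), the gene of the family nearest to 0, the level was 28174 in control and 27955 in Sxl-RAC. This is -0.01 on the log2 scale (standard error 0.08), and the 95% interval ran from -0.16 to 0.14. The sole copy of set 1, tRNA:Glu-CTC-1-1 in an intron of mrj on chromosome 2R, was at -0.02 with a mean count of 28678, beside 28065 to 28404 for set 3.

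The 3 Glu-CTC genes whose unadjusted p was under 0.05 were exactly those of set 2. The level of tRNA:Glu-CTC-2-2 (2R, 19728887 to 19728958, between genes), the most abundant nuclear tRNA gene of the table, was 38023 in control and 32823 in Sxl-RAC. On the log2 scale this is -0.21 (standard error 0.09, 95% interval -0.39 to -0.04, DESeq2 adjusted p 0.0732). The lowest value belonged to tRNA:Glu-CTC-2-3 (3L, 22847725 to 22847796), where levels of 33739 in control and 28807 in Sxl-RAC gave -0.23 (standard error 0.09, interval -0.41 to -0.05, adjusted p 0.0552). The remaining gene, tRNA:Glu-CTC-2-1, was at -0.22 with an adjusted p of 0.0679. None passed 0.05, and all 3 would pass a threshold of 0.1. Per copy, set 2 exceeded sets 1 and 3 by 22.8% in the control group and by 7.90% in the Sxl-RAC group. The difference between the medians of set 2 and of sets 1 and 3 was -0.18, which was not tested, because it needs counts per library that the table does not hold for genes this abundant. As in Lys-CTT, copies of 1 set had nearly equal values: the standard deviation of the log2 fold change was 0.011 over the 9 copies of set 3, where counting gives 0.0073, and 0.0084 over the 3 copies of set 2.

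**Figure D2:**
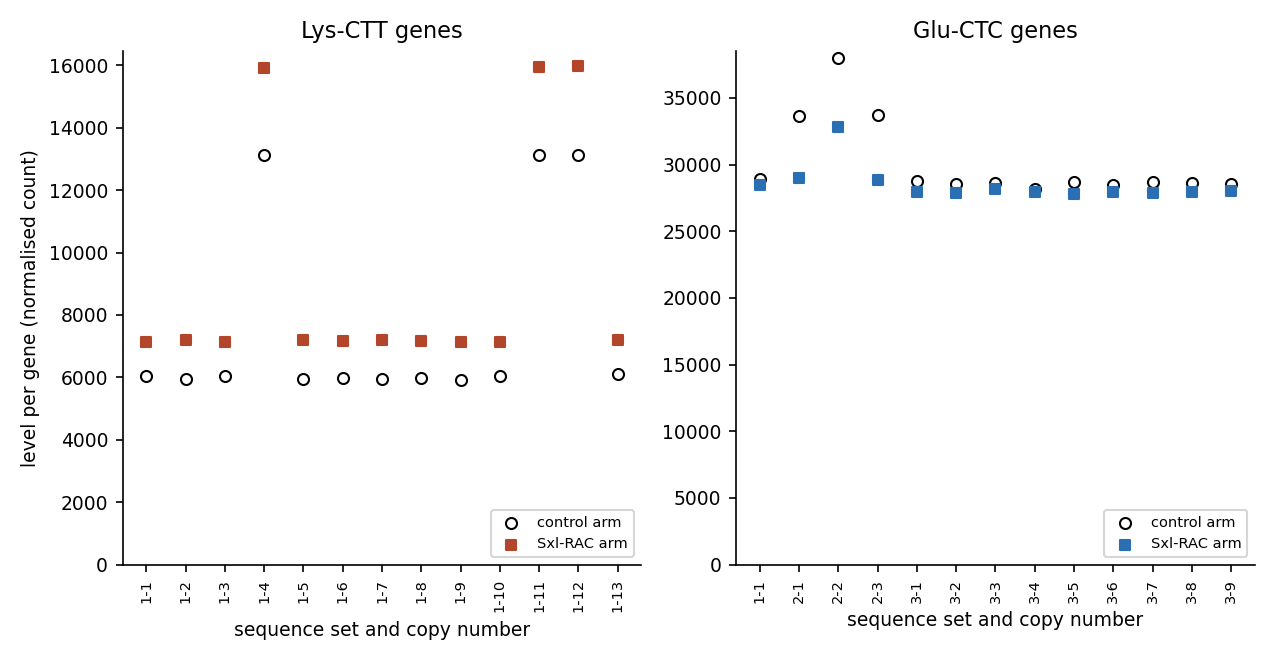
Normalised count per gene in the control group (open circles) and the Sxl-RAC group (squares), computed from the deposited mean count and fold change, for each Lys-CTT copy (left) and Glu-CTC copy (right); both axes start at 0. In Lys-CTT the Sxl-RAC group lies above control in all 13 copies, with the 3 plus-strand copies at 2.21 times the others; on the microRNA scale Lys-CTT has a median of -0.16. In Glu-CTC the widest gaps are those of the 3 copies of set 2, with the Sxl-RAC group below control and adjusted p from 0.0552 to 0.0732.

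Most of the genes sit in clusters of tRNA genes. Of the 34, 15 lie on chromosome 2R, 12 on 3L, 6 on 2L and 1 on X in the BDGP6 annotation, and 25 overlap an intron of another gene. Glu-CTC set 3 holds groups of 3 and 6 copies on 1 strand, with 165 to 269 bases to the nearest neighbour. Of the Lys-CTT copies 4 lie in introns of EcR, with tRNA:Lys-CTT-1-1 apart from the others, and another 4 lie together in introns of mim and CheB42c, and their log2 fold changes ran from 0.24 to 0.28, beside 0.23 to 0.28 over the family. The gene tRNA:Glu-CTC-1-1 lies between a pair of Glu-TTC genes, 192 bases from tRNA:Glu-TTC-1-1, and tRNA:Glu-CTC-2-1 is 135 bases from tRNA:Glu-TTC-1-6. In these close pairs the deposited log2 fold changes were -0.02 beside -0.30, and -0.22 beside -0.30. Of the Glu-CTC genes, tRNA:Glu-CTC-3-8 also overlaps an exon of CG32320 on the same strand, and its value of -0.03 is the median of its set.

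Gln-CTG, the glutamine tRNA for CAG codons, was rare enough for whole reads to be recovered. In each library a read adds a constant step to the mean normalised count, so that a low value can be broken down into reads. For all 8 genes 1 set of whole reads in 6 libraries gave the deposited mean count and, in a negative binomial fit, the deposited log2 fold change to within 0.0001. In 7 of the genes no other set near that fold change gave the mean count, and in tRNA:Gln-CTG-3-1 the fold change picked 1 of 344. Libraries are listed here from the deepest to the shallowest within a group, since they carry no replicate number. The deepest library was a control, with a size factor 3.51 times that of the shallowest.

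Over the 8 Gln-CTG genes, the control libraries held 188, 138 and 73 reads and those of Sxl-RAC held 103, 72 and 67, which makes 641 in all. Divided by the size factors they came to 85.7, 119 and 89.1 in control and to 108, 88.1 and 107 in Sxl-RAC. The groups overlapped, with means of 97.9 ± 18.3 (SD, n = 3) and 101 ± 11.2 (SD, n = 3), a log2 ratio of 0.05. This ratio ran from -0.04 to 0.21 when each library was left out in turn, so that its sign and size rested on single libraries. It was highest without the control library of middle depth and lowest without the deepest control library. A sum over these genes is a description of the libraries and was given no test.

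The most abundant Gln-CTG gene, tRNA:Gln-CTG-3-1 (2L, 2010869 to 2010940, in an intron of CG4238 on the opposite strand), held 80, 41 and 36 reads in control and 34, 36 and 29 in Sxl-RAC. In normalised counts these were 36.5, 35.3 and 43.9 against 35.6, 44.0 and 46.4, and the groups overlapped. The authors' deposited table gives 0.13 on the log2 scale (standard error 0.30, 95% interval -0.45 to 0.71, DESeq2 adjusted p 0.847). In tRNA:Gln-CTG-2-5 (2L, 2013179 to 2013250), the other gene with an adjusted p, reads were 21, 20 and 7 in control and 15, 11 and 8 in Sxl-RAC. Normalised counts were 9.58, 17.2 and 8.54 against 15.7, 13.5 and 12.8, overlapping, and the log2 fold change was 0.26 (standard error 0.52, adjusted p 0.837). No Gln-CTG gene had an unadjusted p under 0.05 in the authors' deposited table, 3 were above 0 and 5 below, and a change as large as that of Lys-CTT lay inside every interval.

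The rarest member, tRNA:Gln-CTG-1-1 on chromosome 2R, had 4, 5 and 3 reads in control and 2, 3 and 2 in Sxl-RAC. Set 4, with the single gene tRNA:Gln-CTG-4-1, had 25, 14 and 6 against 11, 6 and 3. Its value of -0.37 was the lowest of the family, on a standard error of 0.62, and it has no adjusted p. Over the 5 genes of set 2 the coefficient of variation of the mean normalised count was 24.6%. Totals over the libraries were 57, 42, 59, 61 and 82 reads in tRNA:Gln-CTG-2-1 to tRNA:Gln-CTG-2-5. Set 3, which has 1 copy, held 256 reads, beside 301 in the 5 copies of set 2 together. It lies 151 bases from tRNA:Gln-CTG-2-4 on the same strand.

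**Figure D3:**
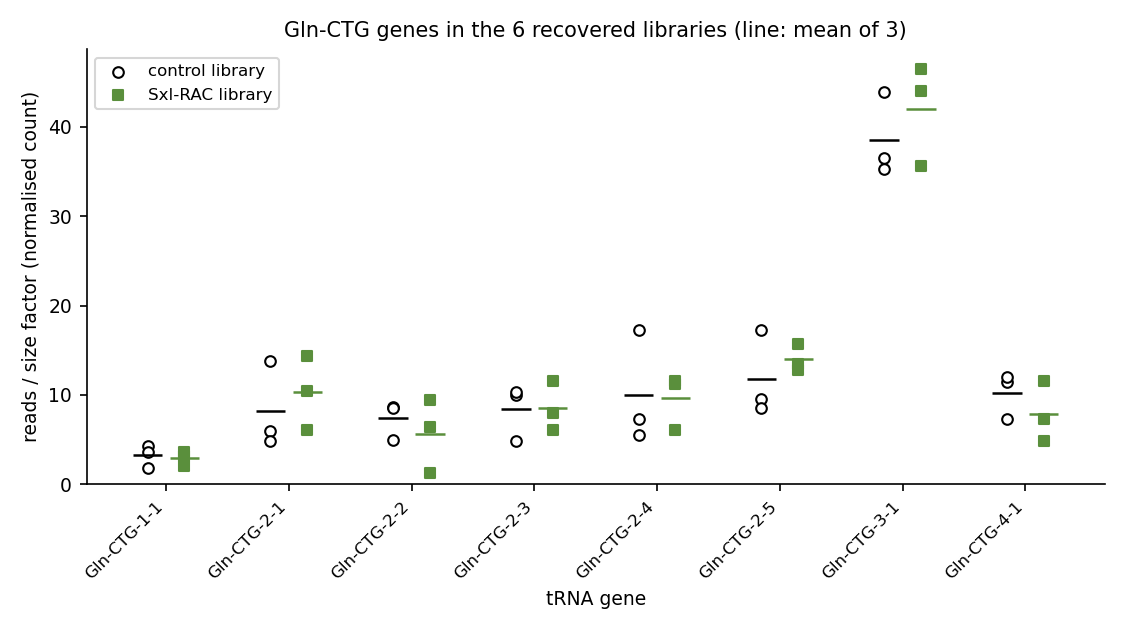
Normalised count (whole reads divided by the size factor) of each Gln-CTG gene in 3 control libraries (open circles) and 3 Sxl-RAC libraries (squares), with lines at the means. The groups overlap in all 8 genes, and tRNA:Gln-CTG-3-1 stands above the rest at 35.3 to 46.4.

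Each family was then set beside the tRNAs for the same amino acid with wobble uridine. By the authors' test 11 of the 12 such genes with an adjusted p were called, 5 higher and 6 lower, beside 21.2% of all nuclear tRNA genes. That share includes these genes and the members. The called genes are copies of a few sequence sets, and copies of 1 set are not replicates, so the count is not one of independent results. Of Lys-TTT genes 5 of 6 were higher, with a median log2 fold change of 0.46 beside 0.27 for Lys-CTT, and tRNA:Lys-TTT-2-3 was at 0.43 with a DESeq2 adjusted p of 0.0545. Its most abundant copy, tRNA:Lys-TTT-1-1, had a level of 277 in control and 391 in Sxl-RAC, or 0.50 on the log2 scale (standard error 0.13, DESeq2 adjusted p 0.00482). The next, tRNA:Lys-TTT-2-2, was at 0.49 (standard error 0.13, adjusted p 0.00494). On the microRNA scale the median of Lys-TTT was 0.03 and that of Lys-CTT -0.16, so that the direction of Lys-CTT turned and that of Lys-TTT lay within its standard error of 0.

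For glutamate, all 6 Glu-TTC genes were lower in Sxl-RAC heads, with a median of -0.30, beside -0.04 for Glu-CTC and -0.22 for its set 2. The level of tRNA:Glu-TTC-1-2 was 2931 in control and 2454 in Sxl-RAC, or -0.26 on the log2 scale (standard error 0.10, DESeq2 adjusted p 0.0461). In tRNA:Glu-TTC-1-6 it was 1956 and 1586, or -0.30 (standard error 0.10, adjusted p 0.0149). The medians of Lys-CTT and Glu-CTC lay 0.31 apart, and the difference between families was not tested, since all share the same libraries and no counts per library were at hand for them.

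Gln-TTG, with 4 genes, none of which had an adjusted p or an unadjusted p under 0.05, had reads of 79, 38 and 30 in control and 39, 21 and 26 in Sxl-RAC. In normalised counts the means were 35.1 ± 2.08 (SD, n = 3) and 36.0 ± 8.97 (SD, n = 3), with overlapping groups and a log2 ratio of 0.04. Of its genes tRNA:Gln-TTG-1-1 was at 0.55 and tRNA:Gln-TTG-1-2 at -0.01, with standard errors of 0.59 and 0.61.

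Wobble cytidine genes supplied most of the counts of each pair. For lysine it was 98.7% of the normalised counts of both types in control and 98.5% in Sxl-RAC. For glutamate it was 96.9% and 97.3%, and for glutamine 73.5% and 73.8%. Shares this close to 100% hide differences that the ratios show. The ratio of Lys-CTT to Lys-TTT counts was 75.3 in control and 65.7 in Sxl-RAC. The ratio of Glu-CTC to Glu-TTC counts was 31.2 in control and 36.2 in Sxl-RAC, and that of Gln-CTG to Gln-TTG was 2.78 and 2.81. The median log2 fold change of the cytidine type minus that of the uridine type was -0.19 for lysine, 0.27 for glutamate and 0.03 for glutamine, and these differences were not tested.

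Of the 26 nuclear tRNA families with a gene of at least 10 mean counts, 5 had a median log2 fold change above that of Lys-CTT. Of these, Trp-CCA, Gln-TTG and Arg-ACG were each a single gene just over the minimum, with mean counts from 10.3 to 11.3 and standard errors from 0.57 to 0.59, so that no order is read from them. The others were Lys-TTT at 0.46 over 6 genes and Arg-CCT at 0.51 over 3 genes, whose values ran from 0.08 to 0.71. Gln-CTG had a median of 0.19 over the 2 genes with 10 or more mean counts and of -0.02 over all 8. Of 23 other nuclear wobble cytidine tRNA genes with an adjusted p, 1 (4.35%) was called, beside 21.2% of all nuclear tRNA genes. It was tRNA:Arg-CCT-1-2, at 0.71 (standard error 0.23, DESeq2 adjusted p 0.0151). Of the same set, tRNA:Arg-CCT-1-1 was at 0.51 (standard error 0.30, adjusted p 0.232) and tRNA:Arg-CCT-1-3 at 0.08 (standard error 0.33, adjusted p 0.899). The median of the 55 such genes with reads was 0.05, and 31 were above 0 and 24 below. Most of them had few reads, with a median mean count of 4.58 and a median standard error of 0.86. Over the 23 with an adjusted p the median was -0.06, so no direction is read from them.

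**Figure D4:**
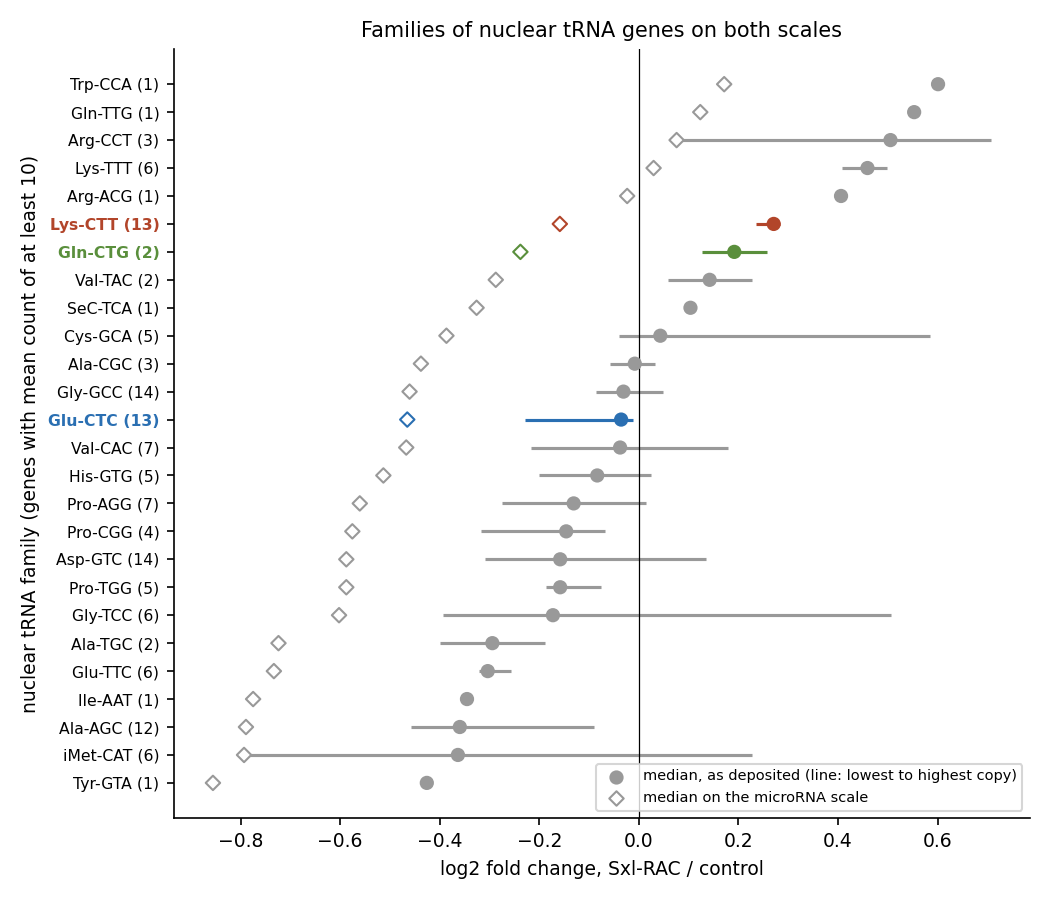
Median log2 fold change of each nuclear tRNA family with a gene of at least 10 mean counts (number of genes in brackets), as deposited (filled, with a line from the lowest to the highest copy) and on the microRNA scale (open diamonds), with the 3 wobble cytidine families in colour. Lys-CTT is at 0.27 and -0.16 on the respective scales and Glu-CTC at -0.04 and -0.47, while Gln-CTG is drawn from 2 of its 8 genes.

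Of other products of RNA polymerase III none was called. Their p-values were adjusted apart from those of tRNA genes, and their scale relative to that of tRNA genes was not recovered. By DESeq2's Wald test 0 of 8 genes for 7SL, 7SK, U6, RNase P and RNase MRP RNA had an adjusted p under 0.05. Over all genes the share was 5.14%, so 8 genes are too few for that count to tell. An unadjusted p under 0.05 was found in 2, the 7SL genes, which encode the RNA of the signal recognition particle. They were at -0.45 for 7SLRNA:CR32864 and -0.42 for 7SLRNA:CR42652 (standard errors 0.20). Of the 8, 6 were below 0 and 2 above, the lowest being snRNA:7SKa at -0.63 (standard error 0.33). Markers of head tissues were present in the table. The neural mir-124 had a mean normalised count of 12.9 and a log2 fold change of -0.12 (standard error 0.59, no adjusted p). The count of lncRNA:noe was 62.8, and it was lower at -1.69 (DESeq2 adjusted p 0.000166). Of muscle microRNAs, mir-1, with a count of 4750, was lower at -0.46 (adjusted p 1.41e-06), and mir-133, with 6835, was higher at 0.23 (adjusted p 0.0173). The male dosage compensation RNAs had counts of 26.1 (lncRNA:roX1, at -1.38, adjusted p 0.298) and 2.61 (lncRNA:roX2, at -0.15, adjusted p 0.971). The microRNA markers are on the microRNA scale and the scale of the lncRNA markers was not recovered, so values of different classes cannot be compared directly. Whether a different make-up of the heads took part in the tRNA values was not tested.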

How the data were processed

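Small RNA libraries were prepared from Trizol-extracted, DNase-treated RNA, per the labels' protocols. Tools named in the submitters' processing notes are Trim Galore 0.6.7, Bowtie2 2.5.3, featureCounts 2.0.8 and DESeq2 2.11.40.8. Genome build, annotation, strand setting and the handling of reads that map to several copies are not given in the sources used here. The authors deposited 1 table of their own comparison, with no column per sample. Its mean normalised count is a signal, per the file headers the mean over libraries of counts divided by size factors. Beside it the authors deposited a log2 fold change and its standard error, a Wald score, a p-value and an adjusted p-value. Depth per library is known only as size factors, the largest 3.51 times the smallest.

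Identifiers were matched to the Ensembl 115 annotation of BDGP6.54 (3545 of 3546 rows), which supplied symbols and 1-based coordinates. Group levels were computed from mean count and fold change. Distinct mean counts under 0.95 were written as sums of up to 11 whole reads in 6 libraries (33 of 33 in the tRNA class, 35 of 35 in the microRNA class, tolerance 1.2e-08). The division into groups of 3 that best followed the authors' fold changes had a correlation across genes of 0.982 in the tRNA class and 0.992 in the microRNA class, against 0.813 and 0.778 for the next. Whole reads were then found for 70 of 70 tRNA genes tried, with a largest gap of 6.91e-06 to the deposited log2 fold change. Sequences were not used here, so that identity of copies rests on the gene symbols. The code was tested on simulated data (Python 3.11.15, numpy 2.4.6, scipy 1.17.1). Named in full are, per family, the most abundant gene, the genes with the highest and lowest fold change among those with an adjusted p, 2 isoacceptors per amino acid, and genes behind counts of 5 or fewer. The lists (isoacceptors with wobble uridine, other wobble cytidine genes, other polymerase III products, tissue markers) and the members were chosen with earlier results of these data known. Alternatives changed the threshold, the adjustment, the scale, a minimum fold change and the choice of copies, and leaving out recovered libraries was added after seeing the data.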

Additional observations from a re-analysis of the deposited data

How the results depend on the processing

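Scale decided the direction. On the microRNA scale the 34 genes had 15 calls, all lower, in place of 13 higher, Lys-CTT had 2 lower with a median of -0.16, Glu-CTC had 13 lower with a median of -0.47, and the median of the 2 Gln-CTG genes with an adjusted p was -0.24 in place of 0.19. No error of the shift itself entered. Re-centring on other nuclear tRNA genes, by 0.08, kept 13 Lys-CTT calls and moved the Glu-CTC median to 0.048. The Lys-CTT calls were near the threshold: at 0.01 there were 0 of the 34 and 0 of Lys-CTT, and with adjustment over all genes there was 1 of each, tRNA:Lys-CTT-1-12. At a threshold of 0.1 Glu-CTC had 3 calls. The other 33 of 45 alternative values stayed within 1.5 times a count or, for a median, within the median standard error of a single gene. Some of them could not differ, such as 0 calls under a stricter threshold or medians over the same copies. For Gln-CTG that standard error was 0.41, so a median of -0.02 over every copy with reads counted as unchanged from 0.19. Without each recovered library in turn the summed Gln-CTG log2 ratio ran from -0.04 to 0.21. For Lys-CTT and Glu-CTC no library could be left out, and for Gln-CTG no gene reached a mean count of 100. No paired analysis was possible because the table holds no column per sample and the labels number the samples of 1 group only.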
